A study of Mus musculus with 23 samples.

Results

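The motile cilia genes are the rows of the mouse gene table named Dnah, Dnaic, Drc, Cfap, Rsph or Tekt with a number, together with Foxj1, Mlf1, Ak7, Lrrc23, Hydin, Spef2, Spag6, Spag16, Spag17, Ccdc39 and Ccdc40. They were chosen by name, with earlier results of these data known, and 55 of the 24421 rows belong to them. The samples are libraries of polyadenylated RNA from the hippocampus of mouse pups, dissected on postnatal day 14. Blood was taken from the facial vein from postnatal day 3, at 5.25 µl per g of body weight in 2 bleeds a day, until a haematocrit goal was reached, and then at 3.5 µl per g once a day. The goal was 18% in pups with severe phlebotomy-induced anemia (sPIA) and 25% in pups with moderate phlebotomy-induced anemia (mPIA), and the non-bled controls (NBC) had no phlebotomy and were pricked in the neck with a needle instead. There were 4 sPIA females, 4 sPIA males, 4 mPIA females, 4 mPIA males, 4 NBC females and 3 NBC males, or 23 libraries in all. The labels name no strain, allele or litter. The p-values weigh group differences against the spread between libraries and treat the libraries as independent, which the labels cannot show.

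Motile cilia are beating cell extensions with a ring of doublet microtubules around a central pair. Outer and inner dynein arms drive the beat, and the nexin-dynein regulatory complex, the radial spokes and the central pair projections control it. Foxj1 is the transcription factor that switches on the genes of this machinery, together with factors of the RFX family. In the brain such cilia stand in tufts on ependymal cells, which line the ventricles, and related cilia stand on the epithelium of the choroid plexus. The hippocampus borders a lateral ventricle, so a dissected hippocampus can carry some of both linings.

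RFX factors bind the X-box, a DNA element made of half-sites with the letters GTTGCC, and forkhead factors such as Foxj1 bind a core with the letters TGTTTAC. Both were searched on both strands in RefSeq promoters (GRCm38.p6, from 250 bases before to 50 bases after each start), which hold 57 windows for 50 of the 55 members. The half-site stood in 22 of 57 member windows (38.6%) and in 12.5% of all 32851 windows, and the forkhead core stood in 6 member windows (10.5%) and in 3.6% of all windows. Matching letters are a description and do not show that a factor binds there. Of the 15 members that were lower in mPIA than in NBC males or higher in sPIA than in mPIA pups, as described further on, 12 are in the promoter table and 6 hold a match. Over all members, the half-site stood in 20 of 50 genes and the forkhead core in 6 of 50. Among members lower in mPIA males these were 3 and 2 of 6 genes, and among those higher in sPIA pups 3 and 1 of 9. A link between the motifs and the changes was not tested. The windows of the 6 genes with a match are shown as examples, and the capitals mark the matches.
Ak7 (chr12:105705732-105706031, plus strand): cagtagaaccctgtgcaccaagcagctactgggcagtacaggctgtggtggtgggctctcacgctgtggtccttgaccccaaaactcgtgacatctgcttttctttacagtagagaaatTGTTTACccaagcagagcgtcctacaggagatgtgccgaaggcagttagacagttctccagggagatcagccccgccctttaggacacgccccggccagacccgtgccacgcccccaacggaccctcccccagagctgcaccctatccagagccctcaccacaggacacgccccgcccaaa
Drc1 (chr5:30281143-30281442, plus strand): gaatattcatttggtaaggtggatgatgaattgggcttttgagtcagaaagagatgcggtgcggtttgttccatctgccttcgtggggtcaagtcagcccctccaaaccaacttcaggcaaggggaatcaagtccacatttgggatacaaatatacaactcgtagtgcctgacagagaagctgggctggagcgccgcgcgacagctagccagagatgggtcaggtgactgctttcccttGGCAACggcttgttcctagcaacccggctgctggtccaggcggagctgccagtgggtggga
Lrrc23 (chr6:124779678-124779977, minus strand): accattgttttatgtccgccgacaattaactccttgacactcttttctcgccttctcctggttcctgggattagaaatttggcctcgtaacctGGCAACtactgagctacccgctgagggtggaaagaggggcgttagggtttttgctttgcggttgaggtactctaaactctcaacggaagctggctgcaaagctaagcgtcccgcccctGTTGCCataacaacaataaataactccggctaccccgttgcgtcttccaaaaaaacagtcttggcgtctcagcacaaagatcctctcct
Mlf1 (chr3:67373847-67374146, plus strand): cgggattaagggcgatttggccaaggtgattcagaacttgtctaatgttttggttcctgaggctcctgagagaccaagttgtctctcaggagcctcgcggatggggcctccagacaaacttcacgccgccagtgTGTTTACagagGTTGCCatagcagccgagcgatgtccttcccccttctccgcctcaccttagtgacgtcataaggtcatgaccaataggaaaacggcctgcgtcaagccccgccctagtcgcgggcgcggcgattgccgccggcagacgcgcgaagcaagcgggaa
Spag16 (chr1:69826720-69827019, plus strand): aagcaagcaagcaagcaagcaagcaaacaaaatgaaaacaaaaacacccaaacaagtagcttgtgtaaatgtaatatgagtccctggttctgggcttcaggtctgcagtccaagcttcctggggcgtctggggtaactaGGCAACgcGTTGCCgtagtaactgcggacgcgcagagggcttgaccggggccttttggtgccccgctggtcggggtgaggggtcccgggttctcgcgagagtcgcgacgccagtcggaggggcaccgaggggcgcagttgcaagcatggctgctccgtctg
Spag6 (chr2:18698772-18699071, plus strand): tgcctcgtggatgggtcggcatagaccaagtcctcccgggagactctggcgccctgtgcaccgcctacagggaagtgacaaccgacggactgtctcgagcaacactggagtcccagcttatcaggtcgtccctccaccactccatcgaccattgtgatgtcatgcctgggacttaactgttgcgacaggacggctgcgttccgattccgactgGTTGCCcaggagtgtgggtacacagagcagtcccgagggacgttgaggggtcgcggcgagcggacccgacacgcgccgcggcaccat
In Spag16 a half-site on the opposite strand begins 111 bases before the start, and a half-site on the gene's own strand begins 103 bases before it. Mlf1 holds a forkhead core from -116 and a half-site from -105. Lrrc23 has half-sites from -157 (opposite strand) and -39, Spag6 has a half-site from -37, Drc1 has one from -11 (opposite strand), and Ak7 has only a forkhead core, from -131. For Spag6 the RefSeq start differs from that of the GENCODE gene model.

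Depth ranged from 15234793 to 44362539 counts per library. Levels are given as CPM, the counts scaled to a common library size with TMM factors, and levels of different genes are compared as CPM per kb of exon. In total, 51 of the 55 members passed the low-count filter and were tested. Tekt3, Rsph14, Rsph6a and Dnah17 did not pass, with means over all libraries of 0.0155 to 0.0538 CPM per kb. They had no count in 8, 5, 11 and 2 of the 23 libraries, where a count of 0 allows up to 3 counts.

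Levels spanned a wide range. Cfap36 stood far above the others at a mean of 37.5 CPM per kb over 23 libraries, followed by Cfap20 at 8.65, Cfap97 at 7.17, Rsph9 at 6.51, Drc1 at 6.45 and Ccdc39 at 5.33. Foxj1 followed at 3.25 CPM per kb, and the other tested members lay between 0.0755 (Cfap61) and 3.17 (Tekt5). Among the dynein heavy chains, the motor subunits, Dnah9 (1.49) and Dnah5 (0.482) led the outer arm and Dnah2 (0.638) and Dnah6 (0.457) the inner arm, in CPM per kb. The dynein intermediate chains Dnaic1 and Dnaic2 had 1.21 and 0.522 CPM per kb, and the central pair was led by Spag6 (2.66) and Cfap69 (1.59). The label of ependyma could be checked with 15 ependymal markers, all of which passed the filter. Of these, Ccdc153 lay between 0.308 CPM in mPIA male 1 and 6.79 CPM in sPIA female 1, and Tmem212 between 0.0473 CPM in mPIA male 4 and 2.81 CPM in sPIA female 1. Both were detected in every library. The markers with the highest levels, Aqp4 (136 to 316 CPM) and S100b, are also made by astrocytes.

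Members differed widely in how steady they were. Over the 23 libraries, 7 of the 51 tested members had a coefficient of variation under 15%, namely Cfap20 (8.01%), Dnah9, Cfap36, Cfap74, Cfap97, Rsph9 and Dnah2. Cfap20, a protein of the inner junction of the doublet, averaged 37.3 ± 1.54 CPM in sPIA females, 41.5 ± 1.57 CPM in mPIA females and 41.9 ± 0.919 CPM in NBC females (SD, n = 4 each). Dnah9, an outer-arm dynein heavy chain, ranged only between 17.5 and 28.0 CPM over all libraries. At the other end stood Drc7, a subunit of the nexin-dynein regulatory complex, with a coefficient of variation of 116%. Dnah11, another outer-arm heavy chain, had 78.4%, Dnah6, an inner-arm heavy chain, 71.6%, and Lrrc23, a radial spoke protein, 69.4%, where the median over the tested members was 37.5%. Both the variable and the steady members thus came from several parts of the axoneme, though Cfap36 and Cfap97 were assigned to none. Bulk values do not show which cells make a member.

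Single libraries held many of the highest values. NBC male 4 had the highest level of all 23 libraries for 21 of the 51 tested members (41.2%), where it was highest for 13.1% of all tested genes. In the same way, sPIA female 1 was highest for 11 members (21.6%) and for 5.12% of all tested genes. No mPIA library was highest for more than 2 of the tested members. The summed level of the 55 members was 615 CPM in NBC male 4, 453 in NBC male 3 and 413 in NBC male 2, so NBC male 4 lay above every other library and NBC male 2 below every sPIA library. NBC male 4 was not high throughout: it had the lowest level of all libraries for Spag17, a central pair protein (0.262 CPM), and for the inner-arm heavy chain Dnah7a (0.419 CPM).

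**Figure D1:**
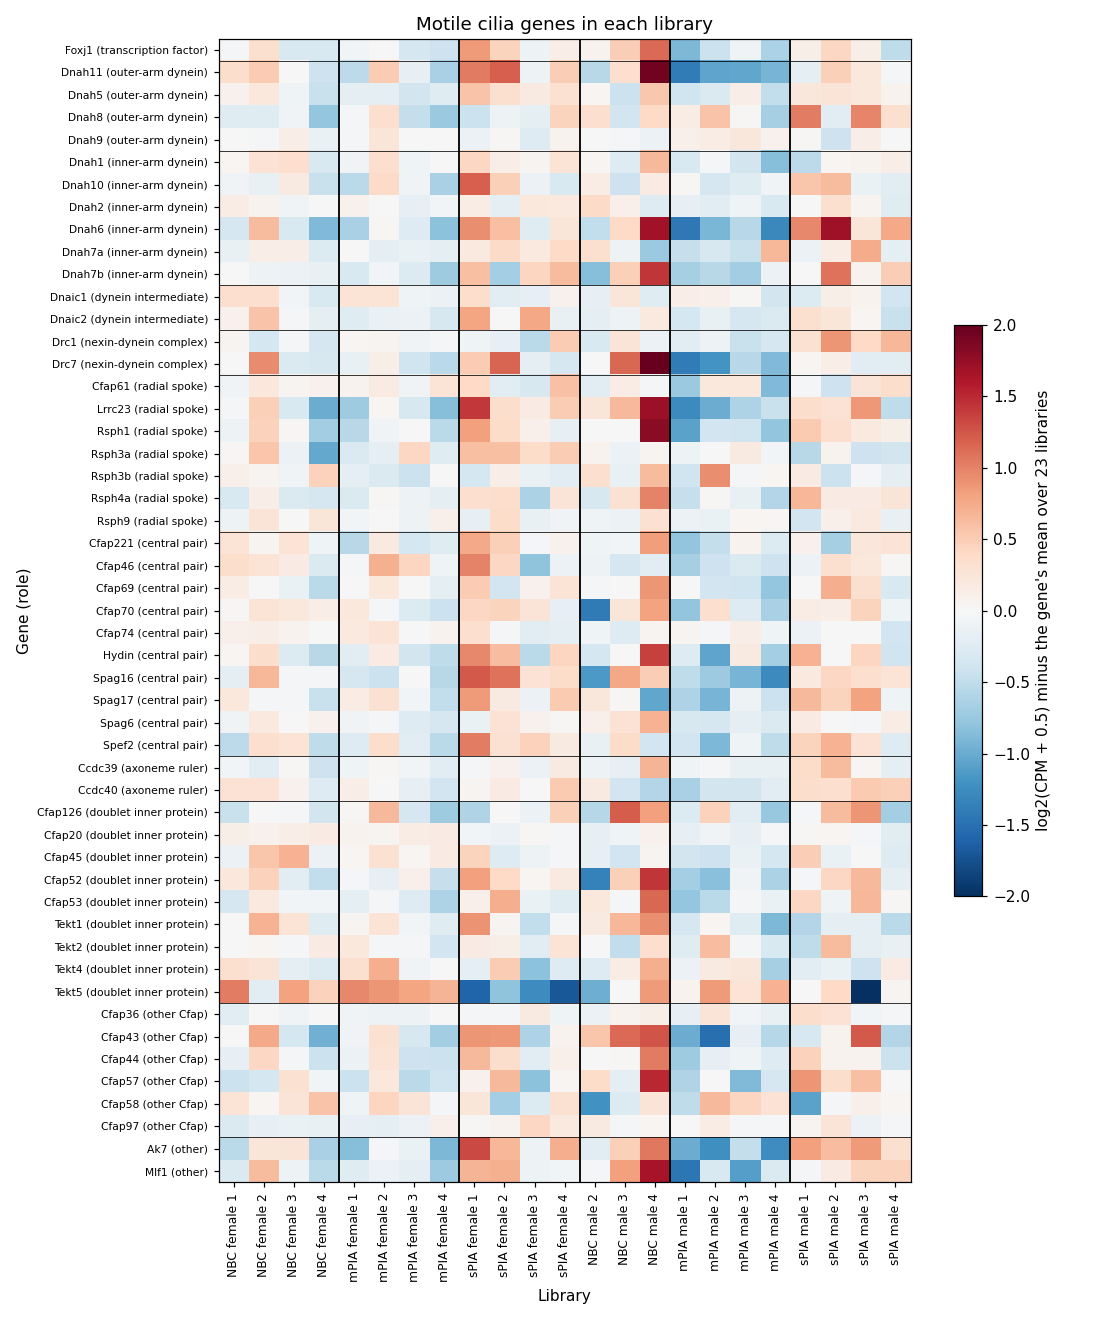
Level of each of the 51 tested members (rows, ordered by role) in each of the 23 libraries (columns), as log2(CPM + 0.5) minus the mean of the gene over all libraries; the colour scale ends at -2 and 2. NBC male 4 and sPIA female 1 have the most dark red cells, mPIA males have mostly blue cells, and rows such as Cfap20 and Dnah9 are pale throughout.

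Over the groups, the summed level of the 55 members averaged 470 ± 30.6 CPM in sPIA females, 421 ± 20.6 CPM in mPIA females and 426 ± 30.3 CPM in NBC females (SD, n = 4 each). In males it averaged 483 ± 52.9 CPM in sPIA (SD, n = 4), 394 ± 30.6 CPM in mPIA (SD, n = 4) and 494 ± 107 CPM in NBC (SD, n = 3). In each sex mPIA thus had the lowest mean, but its range overlapped with those of sPIA and NBC in both sexes. The sum is carried by a few abundant, steady genes. Without the 3 members highest per kb (Cfap36, Cfap20 and Cfap97) it was 250 to 334 CPM in sPIA males and 206 to 234 CPM in mPIA males, against 243 to 425 CPM in NBC males, so that mPIA males lay below both other male groups. In females it was 233 to 336 CPM in sPIA and 220 to 284 CPM in mPIA, against 211 to 287 CPM in NBC, and all 3 groups overlapped. Foxj1 had the same order of group means as the sum. In males it had 8.49 ± 2.23 CPM in sPIA, 5.66 ± 1.51 CPM in mPIA and 12.7 ± 4.97 CPM in NBC. In females Foxj1 had 10.6 ± 3.26 CPM in sPIA, 6.98 ± 1.04 CPM in mPIA and 7.75 ± 1.79 CPM in NBC. In bulk tissue, less ventricle lining in the dissected piece, fewer ciliated cells and less RNA per ciliated cell cannot be told apart.

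Markers of the choroid plexus were high in some of the same libraries. The summed level of 25 choroid plexus markers, all of which passed the filter, was 6902 CPM in NBC male 4, 3675 in NBC male 3, 2685 in NBC female 2 and 2131 in sPIA female 2, and 186 to 514 CPM in the other 19 libraries. By group it was 190 to 2131 CPM in sPIA females, 206 to 452 in sPIA males, 190 to 514 in mPIA females, 186 to 258 in mPIA males, 221 to 2685 in NBC females and 214 to 6902 in NBC males. The transthyretin gene Ttr, the most abundant of these markers, had 1.37 to 29.4 CPM in mPIA males, against 1.23 CPM in NBC male 2, 2464 in NBC male 3 and 4378 in NBC male 4. Of the 25 markers, Aqp1, Folr1, Kcnj13, Otx2, Slc4a5, Kcne2, Calml4 and Tmem72 were at 0 in 1 to 6 libraries each. High member sums were also found without high marker sums: sPIA female 1 and sPIA male 2 had 511 and 542 CPM of members at 398 and 372 CPM of choroid plexus markers. The part of choroid plexus tissue in the member values was not tested.

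**Figure D2:**
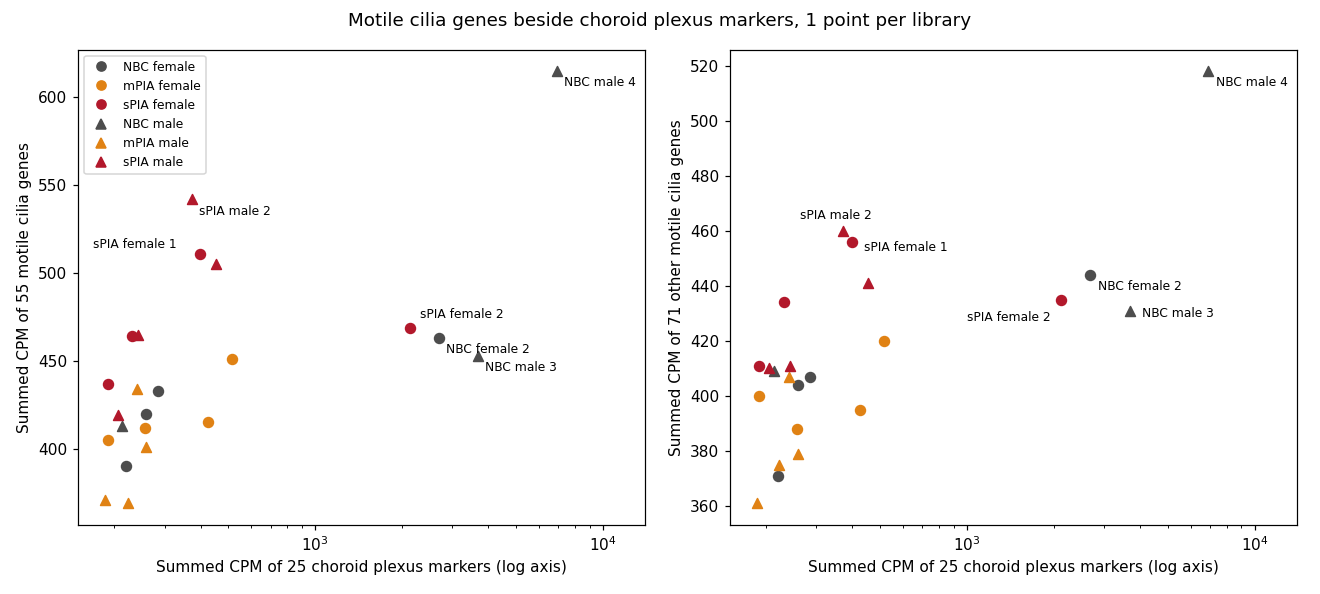
Summed CPM of the 55 motile cilia genes (left) and of 71 other motile cilia genes from a separate list (right) against the summed CPM of 25 choroid plexus markers on a log axis, with 1 point per library, colours for anemia level and shapes for sex. NBC male 4 lies at the top right of both panels, and sPIA male 2 and sPIA female 1 lie high at the left, where the choroid plexus markers are low.

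Of the comparisons made, mPIA against NBC males had the most members called lower. Against NBC males, 8 of the 51 tested members (15.7%) were lower in mPIA males and 0 were higher (edgeR's quasi-likelihood test with Benjamini-Hochberg adjustment at 0.05), where 0.498% of all tested genes were called lower and 0.155% higher. They were Foxj1, the outer-arm heavy chain Dnah11, Drc7 of the nexin-dynein complex, the radial spoke proteins Lrrc23 and Rsph1, the central pair protein Spag6, the ciliary adenylate kinase Ak7, and Mlf1, a gene named for myeloid leukaemia that is abundant in ciliated cells. The log2 changes of the 51 members had a median of -0.51, beside 0.01 for all genes, and 43 were negative. Dnah9 went the other way, with all mPIA males above all NBC males, at 26.1 ± 1.22 CPM (SD, n = 4) and 22.7 ± 1.07 CPM (SD, n = 3), without passing the test (log2 change 0.20, edgeR adjusted p = 0.384).

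Foxj1 had 4.112, 5.869, 7.647 and 5.013 CPM in mPIA males 1, 2, 3 and 4, against 8.438, 11.49 and 18.16 CPM in NBC males 2, 3 and 4. The groups did not overlap, and NBC male 4 was far above the others; the log2 change was -1.16 (SE 0.26, edgeR adjusted p = 0.0391). Drc7 (chromosome 8, 95055103 to 95078141, plus strand, GRCm38) had 0.411, 0.555, 1.13 and 0.804 CPM in mPIA males, against 1.92, 4.82 and 14.6 CPM in NBC males 2, 3 and 4. Here too every NBC male was above every mPIA male, with a wide spread among the NBC males, and the log2 change was -3.26 (SE 0.55, adjusted p = 0.0143). Dnah11 had 0.411 to 0.757 CPM in mPIA males, against 1.13, 2.52 and 8.58 CPM in NBC males 2, 3 and 4, a log2 change of -2.69 (SE 0.51, adjusted p = 0.0168).

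The other 5 members likewise had every NBC male above every mPIA male. Lrrc23 had 0.874 to 1.94 CPM in mPIA males, against 3.40, 4.71 and 10.4 CPM in NBC males 2, 3 and 4 (log2 change -2.11, SE 0.44, adjusted p = 0.0243). Mlf1 had 0.360 to 1.42 CPM in mPIA males, against 1.78, 3.62 and 6.86 CPM (-2.11, SE 0.43, adjusted p = 0.0180), and Ak7 had 1.04 to 2.13 CPM in mPIA males, against 2.62, 4.56 and 7.07 CPM (-1.75, SE 0.37, adjusted p = 0.0253). In each of these NBC male 4 was the highest of the NBC males and NBC male 2 the lowest. Rsph1 differed in that only NBC male 4 stood apart: it had 1.39 to 2.54 CPM in mPIA males, against 3.45, 3.50 and 13.4 CPM (-1.70, SE 0.38, adjusted p = 0.0387). Spag6 had the smallest change, with 6.89 to 7.81 CPM in mPIA males, against 9.52, 10.9 and 14.7 CPM (-0.69, SE 0.15, adjusted p = 0.0230). Its counts are uncertain because mice carry the near-identical gene Spag6l, as are those of the pairs Dnah7a and Dnah7b and Rsph3a and Rsph3b.

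**Figure D3:**
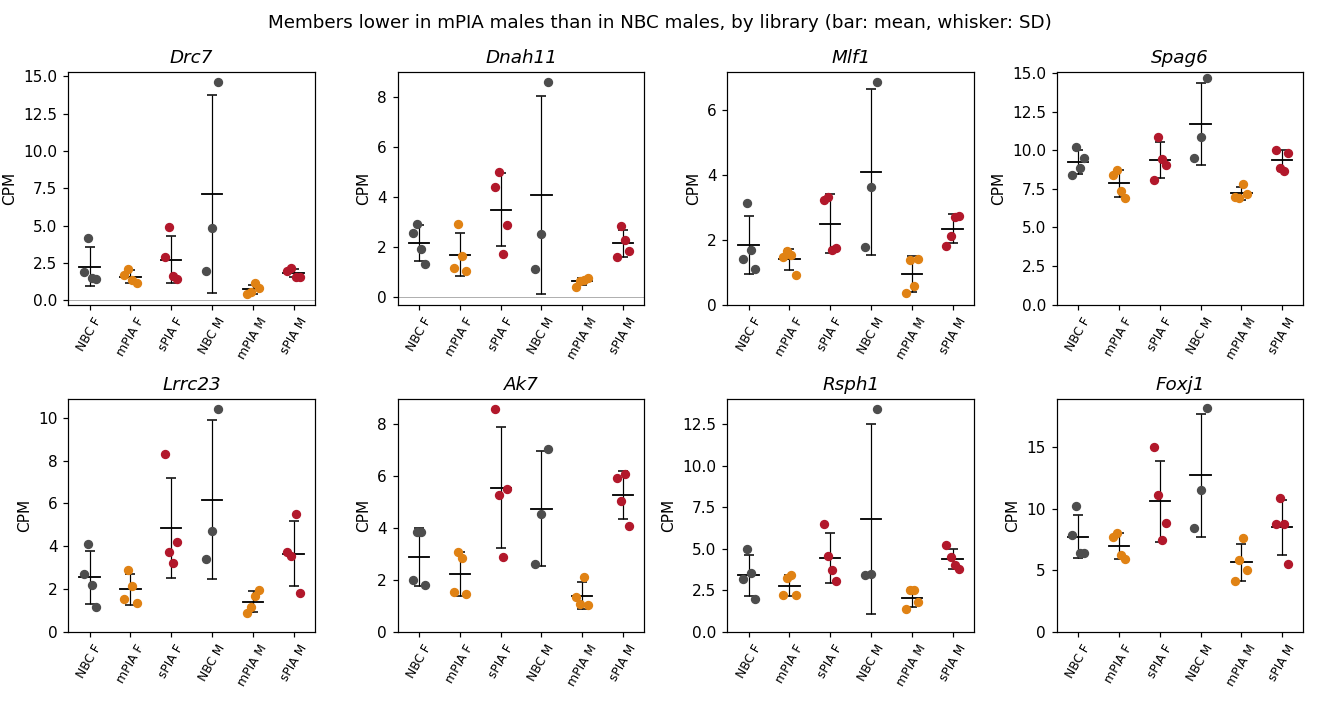
CPM by library of the 8 members that were lower in mPIA males than in NBC males, in the 6 groups; points are libraries, the bar is the group mean and whiskers are the SD. In each panel the mPIA males lie below all 3 NBC males, and NBC male 4 is the highest of them.

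The calls of this comparison depended on single libraries. Without NBC male 4, 0 members passed the test, and the log2 changes of Foxj1, Drc7, Dnah11 and Rsph1 were -0.82, -2.22, -1.57 and -0.76, with adjusted p between 0.129 and 0.436. The count was also 0 without mPIA male 4, 1 without mPIA male 1, 2 without mPIA male 2 and 5 without mPIA male 3. It was 16 without NBC male 2. The share of all tested genes called in these fits is not given here. The counts therefore do not show whether the members moved more than other genes. A fit without NBC male 3 and NBC male 4, chosen after seeing the data, left NBC male 2 alone, which was assumed to vary like the other groups. In that fit 0 members passed the test, and the adjusted p of the 8 members lay between 0.932 and 0.978. In all, 13 of the 51 members had every mPIA male below every NBC male, where 4.61% of all tested genes did. The reverse held for 1 member, Dnah9, and for 5.18% of all tested genes.

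Other lists were read in the same comparison, in which 0.498% of all tested genes were called lower and 0.155% higher. Of 70 tested further motile cilia genes, 5 were lower and 0 higher in mPIA males (7.14%), led by Wdr63 (0.257 ± 0.199 CPM in mPIA males, n = 4, against 3.58 ± 2.23 CPM in NBC males, n = 3, SD; log2 change -3.74, adjusted p = 0.0143), Ccdc146 (-2.52, adjusted p = 0.0180) and Dnali1, an inner-arm light chain (-2.10, adjusted p = 0.0243). All 25 choroid plexus markers had negative changes, with a median of -3.72, and 2 of them fell, Abca4 (-2.91, adjusted p = 0.0377) and F5 (-3.72, adjusted p = 0.0470), although NBC male 2 overlapped with mPIA males in both. All 20 meningeal fibroblast markers were negative as well (median -1.22, 0 called), as were all 15 ependymal markers (median -0.63, 0 called, smallest edgeR adjusted p 0.0633). An unadjusted edgeR p under 0.05 was found for 10 of these 15 and for 2475 of the 15475 tested genes. The sum of the ependymal markers was 375 to 516 CPM in mPIA males, against 571 to 680 CPM in NBC males, so these groups did not overlap, and NBC male 2 was the lowest of the NBC males. Of this sum (means 462 and 637 CPM), Aqp4, also made by astrocytes, averaged 187 CPM in mPIA and 290 CPM in NBC males. The part of these other cell types in the fall of the members was not tested. Neither 15 neuronal markers (median 0.08) nor 48 genes of intraflagellar transport and the primary cilium (median -0.04), the transport system that non-motile cilia share, had a called gene. The 8 astrocyte markers had a median of -0.08 and 0 called.

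In females 0 members were called for moderate anemia. Between mPIA and NBC females 0 of the 51 members passed the test, where 0.00646% of all tested genes did, and DESeq2 and limma-voom called 0. An unadjusted edgeR p under 0.05 was found for 0 members and for 55 of the 15475 tested genes. The median log2 change was -0.16, beside -0.01 for all genes. Foxj1 had 7.73, 8.00, 6.26 and 5.92 CPM in mPIA females, against 7.86, 10.2, 6.44 and 6.44 CPM in NBC females, and the groups overlapped (log2 change -0.16, SE 0.25, adjusted p = 1.0). The largest change among members was -0.83 (Cfap221, a central pair protein), and all 25 choroid plexus markers were negative (median -1.01, 0 called), beside NBC female 2 with 2685 CPM of them. A difference between the sexes in the effect of moderate anemia was called for 0 members by edgeR, DESeq2 and limma-voom. By edgeR it was called for 0.0% of all genes. Its unadjusted edgeR p was under 0.05 for 12 of the 51 members and for 1103 of the 15475 tested genes. The difference of log2 changes, female minus male, was 2.72 for Drc7 (SE 0.74, adjusted p = 0.633) and 1.00 for Foxj1 (SE 0.36, adjusted p = 0.659).

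Between severe anemia and non-bled controls, 2 members passed the test in females and 0 in males. In sPIA females Cfap97 rose and Tekt5 fell against NBC females, 1 member (1.96%) in each direction, where 8.12% of all tested genes were called higher and 7.86% lower. Tekt5, a tektin of the doublet microtubules best known from sperm, had 1.22, 2.51, 1.68 and 1.12 CPM in sPIA females, against 10.1, 3.99, 8.61 and 6.70 CPM in NBC females. All sPIA females lay below all NBC females, with a log2 change of -2.15 (SE 0.51, adjusted p = 0.00721). Cfap97, one of the most abundant members, had 37.2, 38.7, 48.9 and 42 CPM in sPIA females, against 30.1, 32.6, 33.5 and 33.1 CPM in NBC females. Again the groups did not overlap, and the change was small (log2 change 0.37, SE 0.09, edgeR adjusted p = 0.00814). Of the 51 members, 2 had every sPIA female above every NBC female and 2 had the reverse. Of all tested genes, 9.85% had the first and 11.2% the second, so the share of members was below that of all genes. Both calls held in each of the 8 fits that left out 1 library of these groups. The median of the 51 members was 0.28. In a fit without NBC male 4 and NBC female 2, also chosen after seeing the data, 6 members were called, 5 of them higher. The share of all tested genes called in that fit is not given here.

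Against NBC males, 0 members were called in sPIA males (edgeR), where 0.194% of all tested genes were. An unadjusted edgeR p under 0.05 was found for 6 of 51 members and for 1880 of the 15475 tested genes, a similar share. DESeq2 called 1 member and limma-voom 0. Drc7 came closest, with 1.98, 2.13, 1.57 and 1.55 CPM in sPIA males, against 1.92, 4.82 and 14.6 CPM in NBC males 2, 3 and 4. The groups overlapped, since NBC male 2 lay among the sPIA males (log2 change -1.96, SE 0.51, adjusted p = 0.10). Tekt5 had 4.79, 6.38, 0.608 and 4.93 CPM in sPIA males, against 2.17, 4.78 and 8.95 CPM in NBC males, and of the sPIA males only number 3 was as low as the sPIA females (log2 change -0.34, SE 0.50, adjusted p = 0.838). The sex difference of the sPIA effect on Tekt5 was -1.82, female minus male (SE 0.71, edgeR adjusted p = 0.211). For such a difference 0 members were called by edgeR, DESeq2 and limma-voom, where edgeR called 0.95% of all tested genes. Its unadjusted edgeR p was under 0.05 for 10 of 51 members and for 2559 of the 15475 tested genes. In sPIA against NBC males, 3 members were called once NBC male 2 was left out, without the share of all tested genes in that fit.

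Between severe and moderate anemia, the share of members called higher was above that of all tested genes in males and near it in females. In males 7 of 51 members (13.7%) were higher in sPIA than in mPIA and 0 were lower, where 2.13% of all tested genes were called higher and 2.8% lower. They were Ak7, Drc1, the axonemal ruler protein Ccdc40, the heavy chains Dnah6 and Dnah11 and the central pair proteins Spag16 and Spag17. In females 5 members (9.8%) rose, namely Ak7, the outer-arm heavy chain Dnah5, Spag16, Lrrc23 and Cfap97, and Tekt5 fell (1.96%), where 8.67% of all tested genes were called higher and 7.48% lower. The share of members that rose was thus near the background in females. The median log2 change of the 51 members was 0.55 in males and 0.32 in females, beside 0.0 for all genes, and 40 and 41 members were positive. The mPIA libraries are the same ones that were compared with NBC above.

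Ak7, which encodes an adenylate kinase that supplies nucleotides in the axoneme, was called in both sexes. In males it had 5.95, 5.06, 6.08 and 4.07 CPM in sPIA, against 1.34, 1.06, 2.13 and 1.04 CPM in mPIA. Every sPIA male was above every mPIA male, with a log2 change of 1.91 (SE 0.36, adjusted p = 0.00481). In females it had 8.59, 5.27, 2.89 and 5.50 CPM in sPIA, against 1.52, 3.09, 2.83 and 1.45 CPM in mPIA. One sPIA female, number 3, overlapped with the mPIA females, and the log2 change was 1.30 (SE 0.34, adjusted p = 0.00951). Both calls held in each of the 8 fits that left out 1 library. The choroid plexus markers summed to 206 to 452 CPM in sPIA males, against 186 to 258 CPM in mPIA males, and their part in the difference of Ak7 was not tested.

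Drc1, which anchors the nexin-dynein complex, had 20.84, 31.28, 22.14 and 26.88 CPM in sPIA males, against 14.34, 15.48, 12.2 and 13.1 CPM in mPIA males. These groups did not overlap (log2 change 0.88, SE 0.17, adjusted p = 0.00583), and the call held in all 8 fits that left out 1 library. In females Drc1 had 16.5 ± 5.39 CPM in sPIA and 16.7 ± 0.674 CPM in mPIA (SD, n = 4 each). Ccdc40, which with Ccdc39 sets the spacing of dyneins along the axoneme, had 5.02, 4.96, 5.73 and 5.57 CPM in sPIA males, against 2.26, 2.87, 2.88 and 3.26 CPM in mPIA males (log2 change 0.91, SE 0.21, adjusted p = 0.0130). Its partner Ccdc39 had 46.5 ± 11.7 CPM in sPIA males and 36.4 ± 1.44 CPM in mPIA males (SD, n = 4 each), which overlapped. Dnah6 had 10.2, 17.3, 5.98 and 8.78 CPM in sPIA males, against 1.54, 2.40, 3.22 and 1.75 CPM in mPIA males (log2 change 2.23, SE 0.48, adjusted p = 0.0148). All sPIA males were above all mPIA males for both called genes, and each lost its call only without mPIA male 1 (adjusted p = 0.0529 for Ccdc40 and 0.0558 for Dnah6).

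Spag16, a scaffold of the central pair, was called in both sexes. It had 1.15, 1.42, 1.32 and 1.23 CPM in sPIA males, against 0.514, 0.370, 0.251 and 0.0946 CPM in mPIA males (log2 change 2.05, SE 0.54, adjusted p = 0.0271). In females it had 2.86, 2.56, 1.26 and 1.35 CPM in sPIA, against 0.636, 0.571, 0.945 and 0.483 CPM in mPIA (1.55, SE 0.48, adjusted p = 0.0249). Neither pair of groups overlapped, but the levels were low, and the call was lost in 4 of 8 male fits (without mPIA male 3 or 4 or sPIA male 1 or 2) and in 5 of 8 female fits (without mPIA female 1, 2 or 4 or sPIA female 1 or 2), with adjusted p up to 0.0837 and 0.0707. Dnah11 (2.14 ± 0.542 CPM in sPIA and 0.621 ± 0.148 CPM in mPIA, SD, n = 4 each; log2 change 1.77, adjusted p = 0.0420) and Spag17 (1.69 ± 0.543 and 0.615 ± 0.269 CPM; 1.44, adjusted p = 0.0482) were near the threshold in males. Dnah11 kept its call only without sPIA male 4, and Spag17 only without mPIA male 3 or sPIA male 4, with adjusted p up to 0.124 and 0.128 in the other fits. In males, 14 of the 51 members had every sPIA library above every mPIA library and 0 had the reverse, where 4.85% of all tested genes had the first and 5.76% the second. In females 5 members had every sPIA library above every mPIA library and 2 had the reverse, where 1750 and 2008 of the 15475 tested genes did, so the share of members was below that of all genes in both directions.

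In females the other called members were Dnah5, Lrrc23 and Cfap97, which were higher, and Tekt5, which was lower. Dnah5 had 11.1, 9.28, 8.35 and 9.15 CPM in sPIA, against 6.36, 6.46, 5.58 and 6.16 CPM in mPIA, with no overlap (log2 change 0.63, SE 0.18, adjusted p = 0.0172). Lrrc23 had 8.33, 3.72, 3.22 and 4.21 CPM in sPIA, against 1.52, 2.91, 2.15 and 1.33 CPM in mPIA (1.29, SE 0.41, adjusted p = 0.0312), with sPIA female 1 far above the other sPIA females. The call of Dnah5 was lost without mPIA female 3 (adjusted p = 0.0562) or sPIA female 1 (0.0513), and that of Lrrc23 without mPIA female 1, 3 or 4 or sPIA female 1 (up to 0.124). Cfap97 rose by 0.27 (SE 0.09, adjusted p = 0.0418), and its groups overlapped, since mPIA female 4 had 39.5 CPM; its call was lost in 5 of 8 fits, without mPIA female 1, 2 or 3 or sPIA female 3 or 4 (adjusted p up to 0.193). Tekt5 was lower in sPIA females (1.63 ± 0.634 CPM) than in mPIA females (8.85 ± 0.789 CPM; SD, n = 4 each) with no overlap (log2 change -2.42, SE 0.50, adjusted p = 0.00268), and kept its call in all 8 fits.

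**Figure D4:**
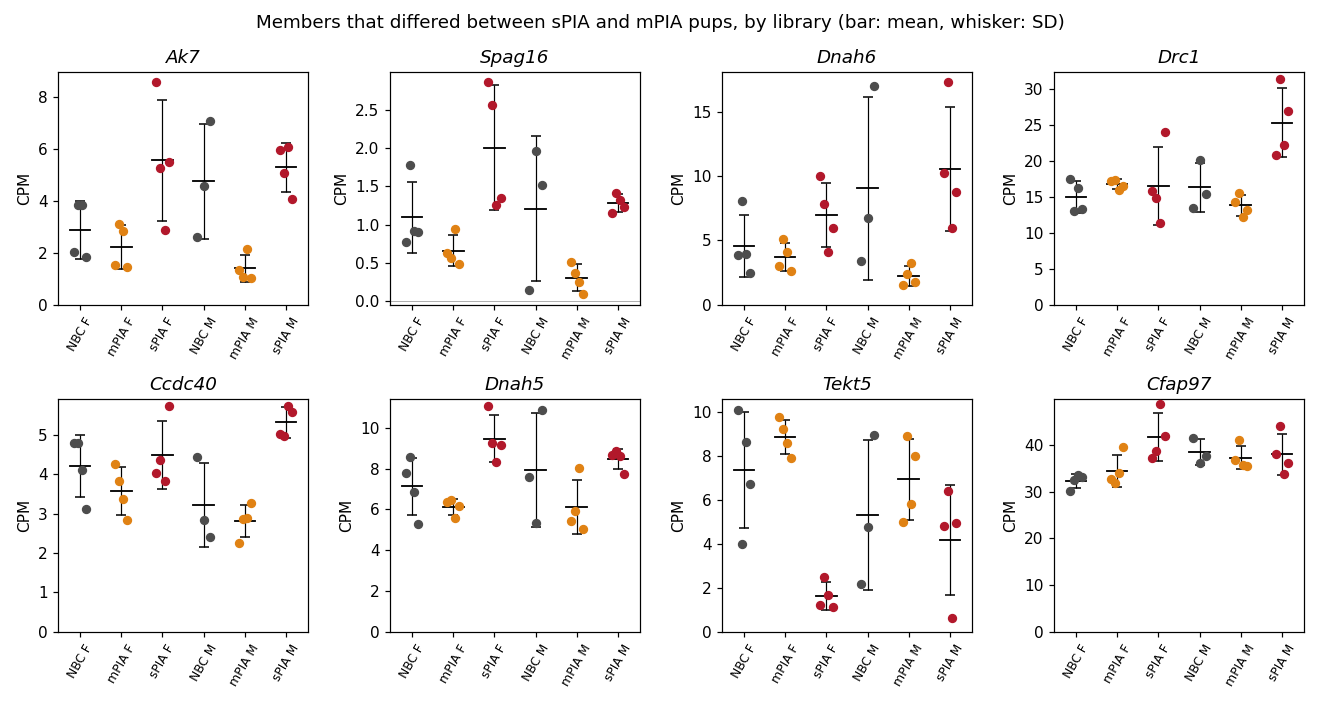
CPM by library of 8 members that differed between sPIA and mPIA pups in 1 or both sexes, in the 6 groups; points are libraries, the bar is the group mean and whiskers are the SD. For Ak7, Spag16, Dnah6, Drc1 and Ccdc40 the sPIA males lie above the mPIA males, and Tekt5 is lowest in sPIA females.

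By role, the members that were higher in sPIA than in mPIA males came from several parts of the axoneme. All 6 inner-arm heavy chains had positive changes (0.26 to 2.23), with 1 called, as did 9 of 10 central pair genes, with 2 called. Of 7 radial spoke genes 4 were positive and 0 called, and of 9 proteins inside the doublet 5 were positive and 0 called. Of the 70 other motile cilia genes, 15 (21.4%) were higher in sPIA than in mPIA males and 0 lower, where 2.13% and 2.8% of all tested genes were. They were led by Ccdc146 (log2 change 2.37, edgeR adjusted p = 0.00750), Iqca (2.25, adjusted p = 0.00811) and Wdr63 (2.93, adjusted p = 0.0108). Ccdc146 had 1.65 ± 0.341 CPM in sPIA and 0.317 ± 0.0887 CPM in mPIA males (SD, n = 4 each). In females 3 of these 70 were higher (4.29%, below the 8.67% of all tested genes) and 0 lower, among them Mns1 (1.03, adjusted p = 0.0204).

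Ependymal markers were called in the same comparison, 6 of 15 higher in sPIA than in mPIA males (Fam216b, Cd24a, Nes, Aqp4, Vim and Gm973) and 0 lower, with a median of 0.61. Fam216b is counted in the list of other motile cilia genes as well, and Aqp4, Nes and Vim also mark astrocytes or immature glia. The ependymal markers summed to 564 to 664 CPM in sPIA males, against 375 to 516 CPM in mPIA males, and the groups did not overlap. Choroid plexus markers had 0 called genes in either sex, with medians of 1.10 in males and 1.37 in females, and meningeal markers had 0 as well (medians 0.69 and 0.16). In females 2 of the 15 ependymal markers (13.3%) were higher, where 8.67% of all tested genes were. They were Sox9 (0.79, edgeR adjusted p = 0.000131) and Nes (0.70, edgeR adjusted p = 0.000628). Sox9 averaged 30.5 CPM in sPIA, 17.7 CPM in mPIA and 18.0 CPM in NBC females, against 25.7 to 29.8 CPM in the male groups. Both genes were also lower in NBC females than in NBC males, where 5.49% of all tested genes were. The part of these other cell types in the member values was not tested.

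Among the regulators of multiciliated cells, 18 of which were tested, 2 (11.1%) were higher in sPIA than in mPIA males, where 2.13% of all tested genes were. Trp73, whose product acts upstream of Foxj1, had 7.70 ± 1.66 CPM in sPIA and 4.63 ± 0.113 CPM in mPIA males (SD, n = 4 each; log2 change 0.73, adjusted p = 0.0298). Myb, which acts early in centriole amplification, had 2.71 ± 1.41 CPM in sPIA and 1.15 ± 0.154 CPM in mPIA males (1.24, adjusted p = 0.0263). In females Trp73 (0.59, adjusted p = 0.0345) and Rfx3 (0.61, adjusted p = 0.00181) rose and Rfx1 fell (-0.48, adjusted p = 0.00919), or 11.1% of the regulators higher and 5.56% lower, near the 8.67% and 7.48% of all tested genes. Rfx3, at 157 ± 32.2 CPM in sPIA and 103 ± 5.6 CPM in mPIA females, is also made by many neurons. Its means were 133 CPM in sPIA, 144 CPM in mPIA and 163 CPM in NBC males. In NBC females it averaged 107 CPM and was lower than in NBC males (log2 change -0.61, edgeR adjusted p = 0.00779). The sex difference of its sPIA effect, female minus male, was also called (0.85, edgeR adjusted p = 0.0315). Foxj1 itself was not called in either sex (log2 change 0.58 in males and 0.60 in females).

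**Figure D5:**
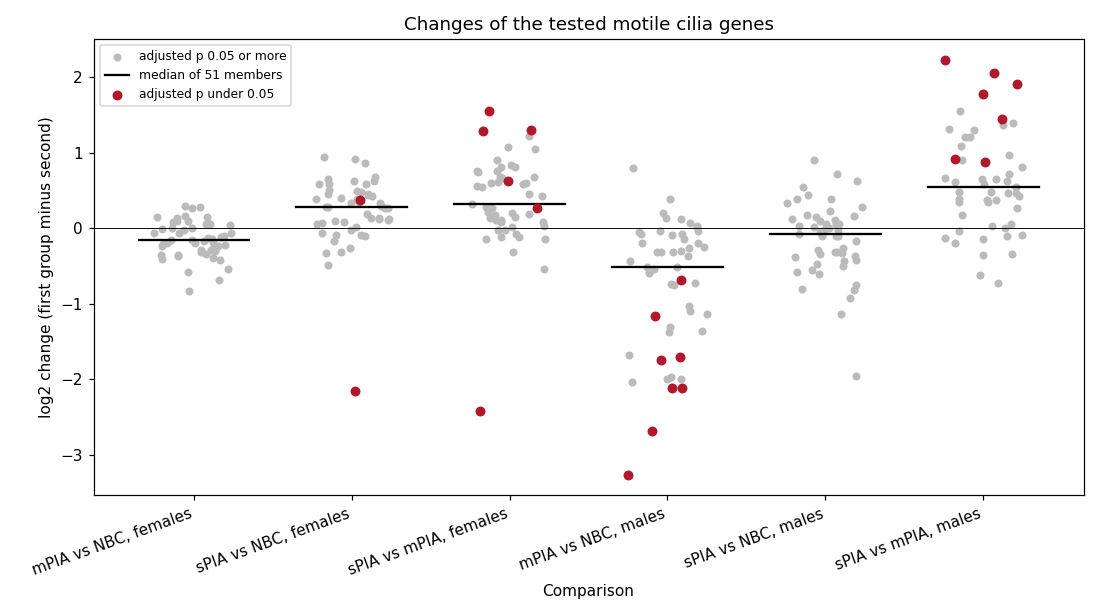
Log2 change of each of the 51 tested members in 6 comparisons, named first group versus second; red points passed an edgeR adjusted p of 0.05, grey points did not, and the line is the median. The cloud lies lowest for mPIA against NBC males (median -0.51) and highest for sPIA against mPIA males (median 0.55), and the low red point in the sPIA female comparisons is Tekt5.

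Non-bled females and males differed in 1 member. Drc7 was lower in NBC females, with 1.89, 4.15, 1.46 and 1.43 CPM, against 1.92, 4.82 and 14.6 CPM in NBC males 2, 3 and 4 (log2 change -1.65, SE 0.50, adjusted p = 0.0389), where 5.49% of all tested genes were called lower and 4.66% higher. The groups overlapped. Without NBC male 4 the change was -0.61 (edgeR adjusted p = 0.510), and 0 members were called. The call of Drc7 was lost as well without NBC female 1, 3 or 4. There were 11 calls without NBC male 2, a count given without the share of all tested genes in that fit. In the choroid plexus list, Abca4 and Enpp2 were also lower in NBC females (edgeR adjusted p = 0.0290 and 0.0490). These were 8.0% of its 25 markers, where 5.49% of all tested genes were called lower.

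The codes in the sample labels limit what the groups can show. NBC and mPIA females carry the codes 86, 90 and 91, mPIA males carry codes that begin with M, and sPIA females, sPIA males and NBC males carry codes that begin with P. What the codes stand for is not given. Only mPIA against NBC females lies within 1 set of codes, and sPIA and NBC males are both coded P, and the code P14 occurs in both, although the S numbers at the end of their labels do not overlap; 0 members were called in either comparison. Each comparison with called members set groups of different codes against each other, so code and group cannot be told apart there.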

How the data were processed

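Hippocampal polyadenylated RNA was extracted with an RNAqueous kit and sequenced as TruSeq libraries, per the labels' protocols. The deposited values are raw counts per gene, made by the authors with TopHat2 2.0.13 on mm10 and Subread, with FastQC and edgeR also named, per the submitters' processing notes. No source used here says whether strand was used in counting, and antisense overlaps were not resolved. NBC male 1 was not analysed here. From the counts, edgeR 4.0.16 (R 4.3.3) fitted 6 group means over 23 libraries with TMM factors and a robust quasi-likelihood test. Of 24421 rows, 15475 passed the low-count filter (minimum count 10, minimum total 15), and Benjamini-Hochberg adjusted p-values were taken over all of them, with calls at 0.05. SE is the log2 change divided by the root of F. Replicates of a group differed by more than counting noise (smallest chi-square per degree of freedom 3). Table rows named as dates (27 rows, 0.328 to 0.35% of counts) stayed in the library sizes. Exon lengths and positions came from GENCODE (GRCm38), and promoters from RefSeq (GRCm38.p6). Alternatives were RLE factors, no filter, DESeq2 1.42.0, limma-voom (3.58.1), only the groups compared, a replicate block, a library code block, and leaving out libraries. Tests were checked on simulated data.

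The members, the lists and the motifs were chosen with earlier results of these data known. Members named are Foxj1, Mlf1, the 2 highest per role in CPM per kb, and all called ones; from other lists up to 3 called genes per comparison and Ttr are named. Cfap61, Cfap74, Cfap221, Dnah7a, Dnah7b, Rsph3a, Rsph3b, Ccdc153, Tmem212, Aqp4 and S100b, and the other genes of short lists of calls, were named after their values were seen.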

Additional observations from a re-analysis of the deposited data

Results flagged for a closer look

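In groups of 4 libraries, 130 combinations of a member and a group were examined for a library that stands far from the other 3, and 5 were found. Chance alone flags about 1 in 20 groups, a larger share than was found here. Drc7 had 4.15 CPM in NBC female 2, against 1.43 to 1.89 CPM in the other NBC females, and Spag16 had 1.78 CPM there, against 0.768 to 0.921 CPM. In sPIA female 2, Dnah2 was low at 8.166 CPM, against 10.55 to 10.97 CPM in the others, and Rsph9 was high at 13.48 CPM, against 9.174 to 9.881 CPM. Dnah9 had 28.0 CPM in mPIA female 2, against 23.1 to 23.5 CPM in the other mPIA females.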

How the results depend on the processing

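Counts of called members varied with the tool and with single libraries. They are given without the share of all tested genes called in the same fit, so they do not show changes particular to the members. For mPIA against NBC males (8 members) the count was 1 with limma-voom, 0 with only these groups in the fit, 0 without NBC male 4 and NBC female 2, 0 without NBC males 3 and 4, and 0 to 16 when 1 library was left out. For sPIA against mPIA males (7) it was 12 with DESeq2, 4 with limma-voom and 3 to 10 with 1 library left out (3 without mPIA male 1, and 4 without mPIA male 4, sPIA male 1 or sPIA male 2). For sPIA against mPIA females (6) it was 10 with only these groups and 3 to 6 with 1 library left out (3 without mPIA female 1 or sPIA female 1). For sPIA against NBC females (2) it was 6 without NBC male 4 and NBC female 2, and for sPIA against NBC males (0) it was 1 with DESeq2 and 0 to 3 with 1 library left out. NBC females against NBC males (1) gave 3 with DESeq2, 0 with limma-voom, with no filter, with only these groups and in both fits without 2 NBC libraries, and 0 to 11 with 1 library left out (3 without NBC female 2 and 2 without NBC male 3). The sex difference gave 0 to 2 calls for mPIA (2 without NBC male 2) and 0 to 1 for sPIA (1 without NBC male 2 or sPIA male 3). The log2 changes of named genes were read under other settings, including changes without a call in the main fit. Of these, 310 kept their direction and stayed called or stayed uncalled, 124 lost the call and 5 turned direction. The last were Foxj1 in mPIA against NBC females (0.01 without NBC female 2, with or without NBC male 4, and -0.24 to 0.01 over single libraries), and, without NBC males 3 and 4, Foxj1 (0.02) and Mlf1 (0.40) in sPIA against NBC males and Drc7 in NBC females against NBC males (0.23). The causes of these differences were not tested.

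Replicate numbers did not pair the libraries: same-numbered libraries correlated at -0.08 to 0.15 in their deviations from the group means. With the replicate number as a block, 3 members were called in mPIA against NBC males and 0 in NBC females against NBC males. Low counts limit the precision of members such as Spag16.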
